A study of Mus musculus with 9 samples.

Results

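The 10 genes described here encode the transcription factor NRF2 (Nfe2l2), enzymes of the antioxidant response it is known to control (Nqo1, Hmox1, Gclc, Gclm, Gsr, Txnrd1 and Srxn1), and the intracellular superoxide dismutases Sod1 and Sod2. They were chosen by symbol from the 32594 rows of the deposited count table, and all 10 were present and passed the low-count filter. RNA came from hindlimb skeletal muscle of 4 SMA libraries (SMN delta 7 mice, a model of spinal muscular atrophy) and 5 wild type (WT) libraries. Both groups had the FVB/N background, and the labels name no further allele, treatment, age or sex. SMN delta 7 mice are known to lack functional mouse Smn1 and to carry human SMN transgenes. The labels do not say whether each library came from its own animal, and p-values therefore measure the spread of these samples, part of which may be technical.

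As background, superoxide formed by mitochondria and oxidases is turned into hydrogen peroxide by superoxide dismutases, and peroxide is removed by peroxidases that draw on glutathione or thioredoxin. Under oxidative or electrophilic stress NRF2 escapes degradation by KEAP1 and enters the nucleus. There it pairs with small MAF proteins and binds antioxidant response elements, where BACH1 competes with it. NRF2 is regulated largely through protein stability, so its transcript and its activity need not move together. Contracting muscle produces oxidants continuously and relies on these enzymes.

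Total counts lay between 30746646 and 35087722 in the SMA libraries and between 24917665 and 34094645 in the WT libraries. Smn1 lay between 1.40 and 2.72 CPM (counts-per-million, after scaling of the libraries) in SMA and between 11.1 and 13.8 CPM in WT. Of the 7 skeletal muscle fibre markers, which include Acta1, Ckm and Ttn, all were detected, 6 fell in SMA and their summed level was 62300 to 75300 CPM in SMA against 115000 to 160000 CPM in WT. In bulk tissue, fewer cells of a type and less RNA per cell cannot be told apart. SMA 3 and WT 5 were the libraries farthest from their groups on principal components. Values without 1 or both of them are therefore given for those of the 10 genes whose log2 fold change moved by over 1.5 times. Not every such value is printed.

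Of the 10 genes, 4 rose in SMA muscle (Nqo1, Hmox1, Gclm and Sod1), 0 fell and 6 did not pass (quasi-likelihood test of edgeR, Benjamini-Hochberg adjusted over 15873 genes, threshold 0.05). Among all genes tested 27.7% rose and 27.2% fell, so 4 of 10 is a share not far from the background. The median log2 fold change was 0.10 over the 10 genes and 0.01 over all genes tested. In 3 of the 10 genes every SMA library lay above every WT library, a pattern found in 22.6% of all genes tested, and in 0 of them did every SMA library lie below, against 21.7% of all genes tested. Under scaling to total counts alone the median of all genes was 0.24 on the log2 scale, and fold changes are given here relative to the trimmed-mean scaling.

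**Figure D1:**
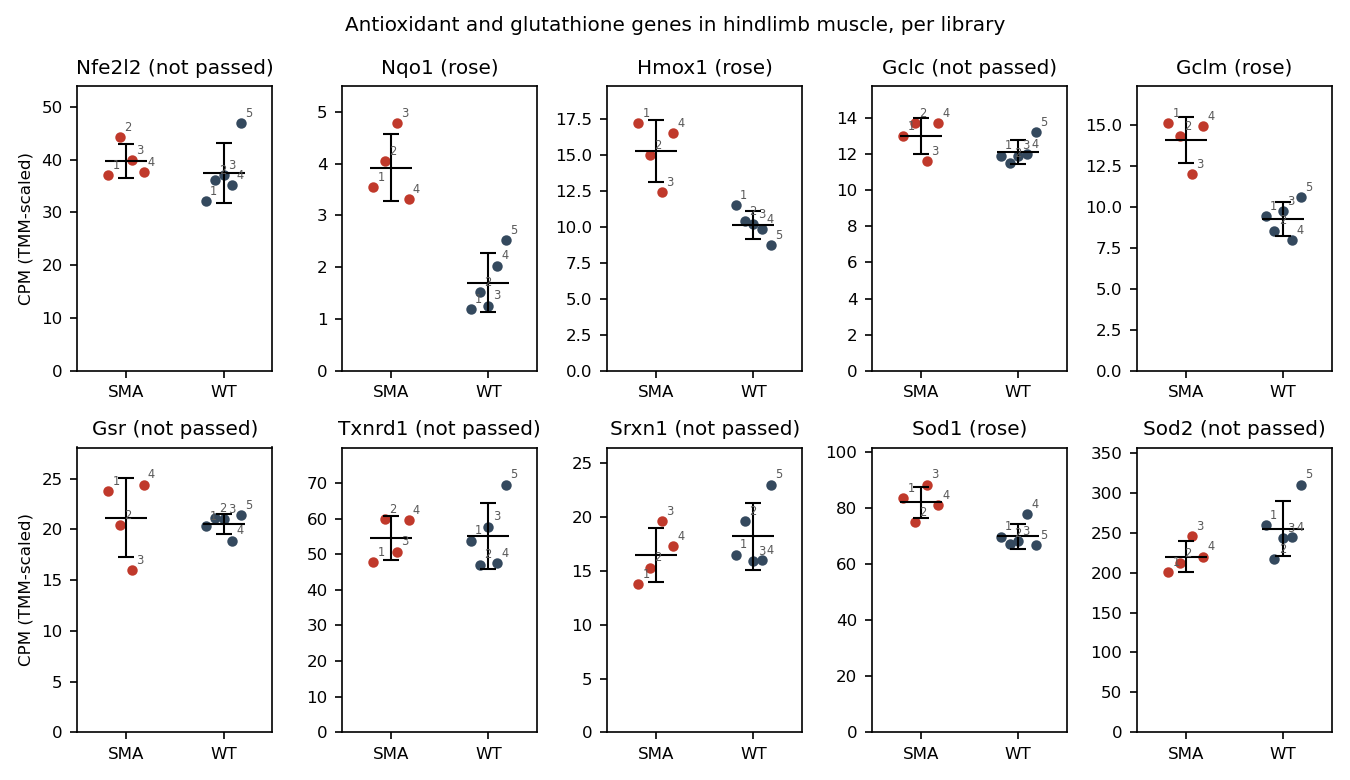
Level of each gene in CPM (linear axis from 0) in the 4 SMA and the 5 WT libraries, with library numbers beside the points; horizontal marks are means and bars the SD. The SMA points lie above all WT points for Nqo1, Hmox1 and Gclm, while the groups overlap for the other 7 genes.

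The transcript of the regulator itself did not pass. Nfe2l2, which encodes NRF2 (chromosome 2, 75675513 to 75704641, minus strand, mm10), was at 37.0, 44.3, 39.9 and 37.7 CPM in SMA libraries 1 to 4, against 32.1, 36.1, 37.0, 35.2 and 46.9 CPM in WT libraries 1 to 5. The groups overlapped, and WT 5 was the highest of all 9 libraries. For Nfe2l2 the log2 fold change was 0.08 ± 0.11 (SE), with a 95% interval of -0.15 to 0.32 and an adjusted p of 0.526 by edgeR. Under scaling to total counts it was 0.33 (adjusted p = 0.014, edgeR), and without WT 5 it was 0.18 (adjusted p = 0.0846, edgeR).

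Nqo1, the quinone reductase commonly read as a marker of NRF2 activity (chromosome 8, 107388225 to 107403206, minus strand), had the largest fold change of the 10 genes. It was at 3.55, 4.05, 4.78 and 3.31 CPM in the SMA libraries, against 1.19, 1.52, 1.26, 2.03 and 2.52 CPM in the WT libraries. Every SMA library lay above every WT library, although the nearest values, 3.31 CPM in SMA 4 and 2.52 CPM in WT 5, were close. Nqo1 rose by 1.20 ± 0.22 on the log2 scale (SE), or 2.29-fold, with an adjusted p of 0.000791 by edgeR. It was also the least abundant of the 10 by count, with 27 to 171 reads per library, and at 27 reads counting alone gives a relative error of 19.2%. Its log2 fold change exceeded that of most genes, with 6.22% of all genes tested above it.

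Hmox1, the inducible haem oxygenase that breaks haem into biliverdin, iron and carbon monoxide (chromosome 8, 75093621 to 75100589, plus strand), also rose. Its levels were 17.2, 15.0, 12.4 and 16.5 CPM in the SMA libraries, against 11.5, 10.4, 10.2, 9.86 and 8.75 CPM in the WT libraries. The groups did not overlap, and SMA 3 came nearest to the WT range. Hmox1 rose by 0.59 ± 0.11 (SE) on the log2 scale, or 1.51-fold, with an adjusted p of 0.000826 by edgeR. Macrophages and other cells that take up red cells are known for high Hmox1. Of 10 macrophage markers in these libraries 1 rose, 6 fell and 3 did not pass, and their summed level was 72.4 to 98.0 CPM in SMA against 121 to 153 CPM in WT. Mrc1, the mannose receptor, fell by 1.72 on the log2 scale. Cd163, the receptor for haemoglobin bound to haptoglobin, was the 1 marker that rose, with a log2 fold change of 0.54, a call that was lost without SMA 1 and without SMA 2. All 3 red cell genes measured fell, with a summed level of 603 to 958 CPM in SMA against 1220 to 2040 CPM in WT.

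The constitutive haem oxygenase and the next enzyme of the route moved the other way. Hmox2 had a log2 fold change of -0.28 ± 0.08 (SE) and the biliverdin reductase gene Blvra one of -0.52 ± 0.12, and both passed (adjusted p = 0.0113 for Hmox2 and 0.00252 for Blvra, edgeR). Neither passed under scaling to total counts. The ferritin light chain gene Ftl1, which stores iron, rose by 0.28 ± 0.07. The more abundant ferritin heavy chain gene Fth1 did not pass, at 0.01 ± 0.10 (adjusted p = 0.933, edgeR). Its means were 1345 CPM in SMA and 1335 CPM in WT.

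Glutathione is made by glutamate-cysteine ligase, whose catalytic subunit is encoded by Gclc and whose modifier subunit, which raises its activity, is encoded by Gclm. Gclm (chromosome 3, 122245557 to 122270732, plus strand) was at 15.1, 14.3, 12.0 and 14.9 CPM in the SMA libraries, against 9.45, 8.55, 9.72, 7.97 and 10.6 CPM in the WT libraries. All SMA values lay above all WT values, with SMA 3 the lowest of its group. Gclm rose by 0.60 ± 0.11 (SE) on the log2 scale, or 1.52-fold, and had the lowest adjusted p of the 10 genes, 0.000503 by edgeR. The GENCODE annotation places the antisense transcript Gm17494, which shares 296 exon bases with Gclm, and the pseudogene Gm6061, which shares 244, within the gene. The strand setting of the counting was not given in the sources used, so shared reads may be included.

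Gclc (chromosome 9, 77754535 to 77794485, plus strand) was at 13.0, 13.7, 11.6 and 13.7 CPM in the SMA libraries, against 11.9, 11.5, 11.9, 12.0 and 13.2 CPM in the WT libraries. The groups overlapped, and SMA 3 lay below all WT libraries except WT 2. The log2 fold change of Gclc was 0.11 ± 0.08 (SE), with a 95% interval of -0.08 to 0.29 and an adjusted p of 0.308 by edgeR. Under scaling to total counts it was 0.34 (adjusted p = 0.0065, edgeR), and without WT 5 and SMA 3 together it was 0.19 (adjusted p = 0.0551, edgeR).

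The balance of the ligase subunits was therefore compared within each library, where no scaling enters. The ratio of Gclc to Gclm counts was 0.862, 0.957, 0.967 and 0.924 in the SMA libraries, against 1.26, 1.34, 1.23, 1.5 and 1.24 in the WT libraries. Gclm reads outnumbered Gclc reads in 4 of 4 SMA libraries and in 0 of 5 WT libraries. Reads grow with length, and the annotated exons cover 6291 bases for Gclm and 3766 for Gclc. Per kilobase of exon, mean Gclc stayed above Gclm in SMA (3.45 against 2.24 CPM) and in WT (3.21 against 1.47 CPM). These lengths are unions of all annotated exons, so the order could differ for the transcripts that the muscle uses. The mean log2 ratio was -0.11 ± 0.08 in SMA (SD, n = 4) and 0.39 ± 0.12 in WT (SD, n = 5), a difference of -0.50 (two-sided, p = 0.00794 by an exact permutation test, the smallest that divisions of the 9 libraries can give; adjusted p = 0.0238 for 3 ratios). With any 1 SMA library left out the adjusted p was 0.0536 by the same exact test. The exact p was then 0.0179, the smallest that 5 against 3 libraries can give.

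**Figure D2:**
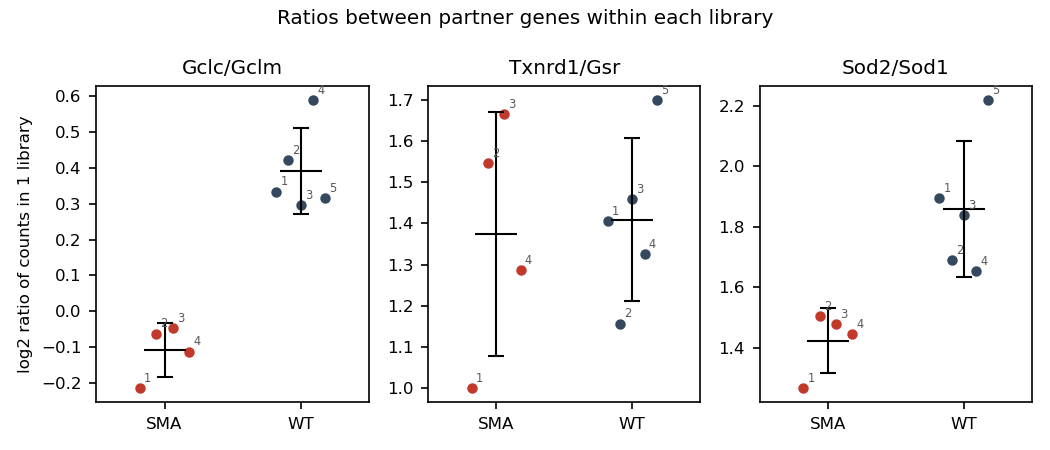
Log2 ratio of the counts of partner genes within each library, for the 4 SMA and the 5 WT libraries, with library numbers; horizontal marks are means and bars the SD. The groups are apart for Gclc/Gclm and Sod2/Sod1 and overlap for Txnrd1/Gsr.

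Neither reductase that recycles the oxidised carriers passed. Gsr, the NADPH-dependent glutathione reductase (chromosome 8, 33652523 to 33698163, plus strand), was at 23.9, 20.4, 16.0 and 24.4 CPM in the SMA libraries, against 20.3, 21.1, 21.0, 18.9 and 21.4 CPM in the WT libraries. SMA 1 and SMA 4 lay above every WT library and SMA 3 below every one. The SMA values had a coefficient of variation of 18.3%, against 4.81% in WT. The log2 fold change was 0.04 ± 0.11 (SE), with a 95% interval of -0.21 to 0.29 and an adjusted p of 0.776 by edgeR, and it was 0.155 without SMA 3 (adjusted p = 0.132, edgeR).

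Txnrd1, the cytosolic thioredoxin reductase and a selenoprotein (chromosome 10, 82833951 to 82897712, plus strand), was at 47.7, 59.8, 50.7 and 59.5 CPM in the SMA libraries, against 53.8, 47.1, 57.7, 47.5 and 69.5 CPM in the WT libraries. WT 5 was the highest library and the SMA range lay within the WT range. Txnrd1 had a log2 fold change of -0.02 ± 0.12 (SE), with a 95% interval of -0.28 to 0.24 and an adjusted p of 0.907 by edgeR, and it was 0.078 without WT 5 and 0.013 without SMA 3. The mean log2 ratio of Txnrd1 to Gsr was 1.38 ± 0.30 in SMA (SD, n = 4) and 1.41 ± 0.20 in WT (SD, n = 5), with no difference detected (exact permutation test, p = 0.841, adjusted p = 0.841).

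Srxn1, sulfiredoxin, which restores overoxidised peroxiredoxins (chromosome 2, 152105516 to 152111376, plus strand), was at 13.8, 15.3, 19.6 and 17.3 CPM in the SMA libraries, against 16.5, 19.6, 15.9, 16.0 and 23.0 CPM in the WT libraries. The groups overlapped, with SMA 1 the lowest and WT 5 the highest library. The log2 fold change was -0.14 ± 0.13 (SE), with a 95% interval of -0.44 to 0.15 and an adjusted p of 0.384 by edgeR, and it was -0.046 without WT 5 and -0.238 without SMA 3. For the genes that did not pass, these intervals leave room for changes of the sizes they span.

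The balance of the intracellular superoxide dismutases differed between the groups. Sod1, the copper and zinc enzyme of the cytosol (chromosome 16, 90220754 to 90226329, plus strand), was at 83.5, 74.9, 88.2 and 80.9 CPM in the SMA libraries, against 69.7, 67.2, 68.1, 77.6 and 66.7 CPM in the WT libraries. The groups overlapped only through WT 4, which lay above SMA 2. Sod1 rose by 0.23 ± 0.07 (SE) on the log2 scale, or 1.17-fold, with an adjusted p of 0.021 by edgeR. The call was the weakest of the 4: without WT 3 the adjusted p was 0.0516, without SMA 1 it was 0.0565, without WT 5 and SMA 3 together it was 0.0602, and with the level of Y-linked genes as a covariate it was 0.147, all by edgeR.

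Sod2, the manganese enzyme of the mitochondrial matrix (chromosome 17, 13006846 to 13040063, plus strand), was at 201, 212, 246 and 220 CPM in the SMA libraries, against 259, 217, 243, 244 and 310 CPM in the WT libraries. The groups overlapped, and WT 5 was the highest library. Its difference on the log2 scale was -0.21 ± 0.11 (SE), with a 95% interval of -0.45 to 0.02 and an adjusted p of 0.116 by edgeR, and it was 0.04 under scaling to total counts and -0.132 without WT 5.

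Within libraries, Sod2 counts were 2.41, 2.84, 2.79 and 2.72 times those of Sod1 in the SMA libraries, against 3.72, 3.23, 3.57, 3.15 and 4.65 times in the WT libraries. Every SMA ratio lay below every WT ratio. The mean log2 ratio of Sod2 to Sod1 was 1.42 ± 0.11 in SMA (SD, n = 4) and 1.86 ± 0.22 in WT (SD, n = 5), a difference of -0.43 (two-sided, p = 0.0159 by an exact permutation test; adjusted p = 0.0238 for 3 ratios). With any 1 SMA library left out the exact p was 0.0357 and the adjusted p of this exact test was 0.0536. With 5 against 3 libraries this test cannot give an exact p below 0.0179, so the size of the design limits it.

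Per kilobase of annotated exon, mean levels were highest for Sod2, at 22 CPM per kilobase in SMA and 25.4 in WT, and for Sod1, at 20.6 in SMA and 17.6 in WT. Nfe2l2 followed at 10.5 in SMA and 9.86 in WT. The lowest of the 10 per kilobase were Gclm, at 2.24 in SMA and 1.47 in WT, and Nqo1, at 2.53 in SMA and 1.10 in WT. The union of all annotated exons was used as length, which lowers genes with long alternative ends, such as Sod2 with 10008 bases.

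Promoter windows from RefSeq (GRCm38.p6, 250 bases before to 50 after an annotated start) were given for 7 of the 10 genes, in 9 windows. They were searched on both strands for the core of the antioxidant response element, TGACNNNGC, and for the AP-1 element TGANTCA, which bZIP factors related to NRF2 bind. The first was found in 5 of the 9 windows, each of another gene, and in 12.4% of all 32851 windows. The second was found in 1 of the 9 windows, that of Srxn1, and in 7.81% of all windows. Stretches around matches are shown 5′ to 3′ on the gene's strand, with the match in capitals, because they let the sequence be set beside the change of each gene.
Gclm, chr3:122245413-122245441, plus strand, reverse match beginning 134 bases before the start: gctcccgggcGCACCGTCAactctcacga
Sod1, chr16:90220696-90220724, plus strand, reverse match beginning 56 bases before the start: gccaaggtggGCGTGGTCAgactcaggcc
Nfe2l2, chr2:75704885-75704913, minus strand, forward match beginning 240 bases before the start: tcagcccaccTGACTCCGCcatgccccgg
Txnrd1, chr10:82859104-82859132, plus strand, reverse match beginning 92 bases before the start of 1 of 3 windows: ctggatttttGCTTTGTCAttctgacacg
Srxn1, chr2:152105469-152105495, plus strand, AP-1 element 45 bases before the start: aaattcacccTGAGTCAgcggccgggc

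Srxn1 also held an AP-1 element 102 bases before the start and a reverse match to the antioxidant core 29 bases after it. None of these matches of the antioxidant core, as searched, overlapped an AP-1 element. The Srxn1 AP-1 element 45 bases before the start is followed by gc. With these bases it differs from the searched core only by G in place of its C. Forms of the core with that G were not searched. By call, the antioxidant core was present for 2 of the 3 genes that rose and had a window, Gclm and Sod1 but not Nqo1, and for 3 of the 4 that did not pass and had one. A match is a description of letters and shows no binding, and elements lying farther from the start were not searched.

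Gclm, with the lowest adjusted p of the 10, was used to look for genes of like pattern over the 9 libraries, by the root mean square difference of log2 CPM after centring each gene on its mean. The nearest were Tpp2, a cytosolic peptidase gene, at a distance of 0.047, the clathrin adaptor gene Ap2a1 at 0.051 and Ubxn4 at 0.054. Tpp2 averaged 66.4 ± 6.92 CPM in SMA (SD, n = 4) and 44.1 ± 6.76 CPM in WT (SD, n = 5).

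The wider antioxidant pathway was divided between genes that rose and genes that fell. Over 98 tested genes of 9 lists of antioxidant, glutathione and oxidant-producing genes, 25 rose (25.5%), 36 fell (36.7%) and 37 did not pass, with a median log2 fold change of -0.07, beside 27.7% that rose and 27.2% that fell among all genes. Under scaling to total counts 40 rose and 16 fell, so the balance of directions over these lists rests on the scaling.

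**Figure D3:**
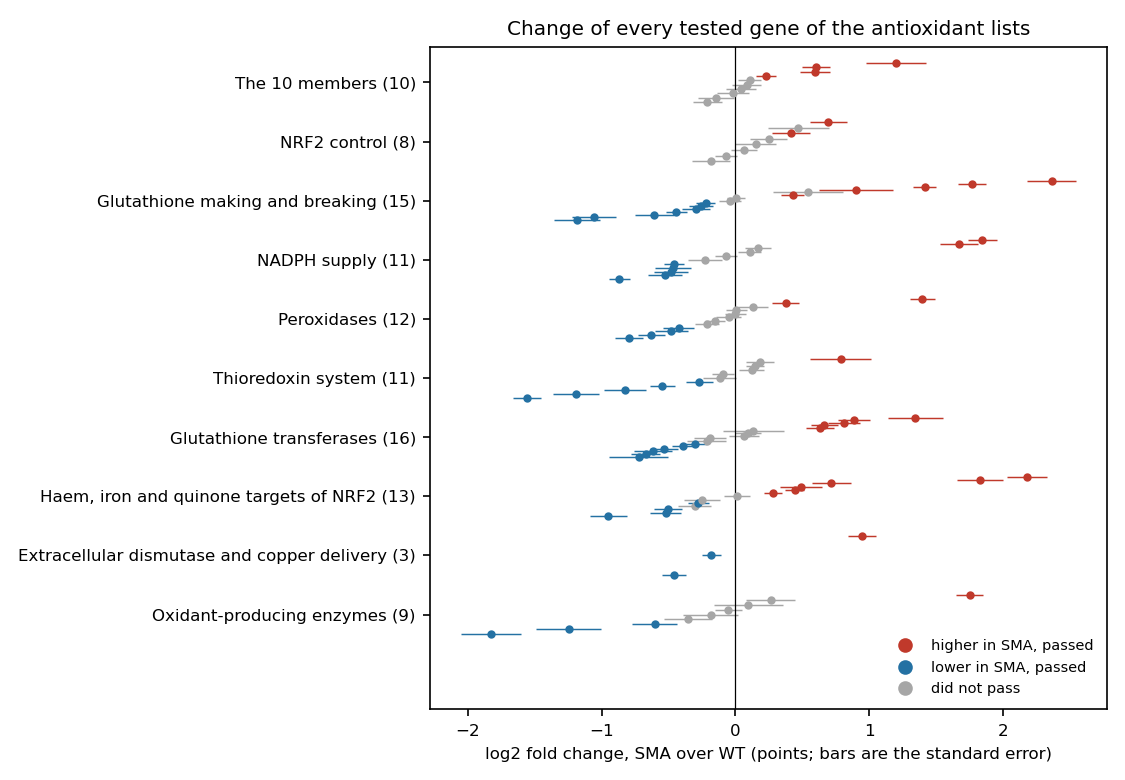
Log2 fold change, SMA over WT, of the 10 genes (top) and of every tested gene of the 9 wider lists, with the number tested in brackets; bars are the standard error and colours give the direction of genes that passed. In 8 of the 9 wider lists some genes rose and others fell, and in the list of NRF2 control 2 rose and 0 fell.

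Among 8 tested genes of NRF2 control, 2 rose, 0 fell and 6 did not pass. Sqstm1, the autophagy receptor p62 that can sequester KEAP1, rose by 0.69 ± 0.14 (SE), at 424, 380, 273 and 370 CPM in the SMA libraries against 217, 205, 204, 205 and 285 CPM in the WT libraries, where SMA 3 lay below WT 5. Mafk, a small MAF partner of NRF2, rose by 0.42 ± 0.14 with an adjusted p of 0.0253 by edgeR, and was no longer called without WT 2, WT 3, WT 4, SMA 1 or SMA 2, each left out alone. The log2 fold change was -0.07 ± 0.08 for Keap1 (adjusted p = 0.509, edgeR) and 0.06 ± 0.09 for Bach1 (adjusted p = 0.588, edgeR).

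Among 15 tested genes of glutathione making and breaking, 5 rose, 7 fell and 3 did not pass. Cth, which makes cysteine from cystathionine, rose by 2.36 ± 0.18 (SE) from a low level, with 4.82 ± 0.55 CPM in SMA (SD, n = 4) and 0.93 ± 0.21 CPM in WT (SD, n = 5). Oplah, which returns 5-oxoproline to glutamate, rose by 1.42 ± 0.08, and Ggt5, an enzyme of the cell surface that cleaves glutathione conjugates, by 1.77 ± 0.10. Slc7a11, the cystine importer and a known NRF2 target, changed by -0.61 ± 0.15, at 3.09, 2.69, 3.97 and 3.57 CPM in the SMA libraries against 4.49, 5.36, 5.18, 5.80 and 4.50 CPM in the WT libraries, and did not pass under scaling to total counts. Ggct and Chac2, which degrade gamma-glutamyl peptides and glutathione, had log2 fold changes of -1.18 ± 0.17 and -1.06 ± 0.16, and both passed.

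Genes listed for the supply of NADPH, which both reductases and Nqo1 consume, were also divided. Of 11 genes tested 2 rose, 5 fell and 4 did not pass. Not all of them make NADPH: Taldo1 and Tkt, which both fell, belong to the part of the pentose phosphate route that makes none. The producers Pgd and Idh1 did not pass, at -0.07 and 0.17. Nnt, the transhydrogenase of the inner membrane, was at 351, 377, 315 and 351 CPM in the SMA libraries, against 110, 96.6, 111, 87.0 and 80.2 CPM in the WT libraries, and rose by 1.85 ± 0.11 (SE). Nnt (from 119335448) and the peroxidase gene Gpx8 (from 113042753) lie on chromosome 13, as does Smn1 (from 100124852). Nqo2 (from 33964687) and the glutaredoxin gene Glrx (from 75839868), which both fell, lie there too. Whether linkage to Smn1 has a part in their changes was not tested. Idh2, the matrix isocitrate dehydrogenase, rose by 1.67 ± 0.14, with 734 ± 97.3 CPM in SMA (SD, n = 4) and 230 ± 39.7 CPM in WT (SD, n = 5). The cytosolic genes Taldo1 of the pentose phosphate route, at -0.87 ± 0.08, and Me1, malic enzyme, at -0.53 ± 0.13, fell, as did the mitochondrial malic enzyme gene Me3 at -0.46 ± 0.08, which did not pass under scaling to total counts. G6pdx, which encodes the first enzyme of that route, fell by 0.47 ± 0.13, a call lost under scaling to total counts and with the level of Y-linked genes as a covariate.

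Among 12 peroxidase genes 2 rose, 4 fell and 6 did not pass. Gpx3, the secreted glutathione peroxidase, rose by 1.40 ± 0.09 (SE), at 94.2 ± 9.37 CPM in SMA (SD, n = 4) and 35.8 ± 3.60 CPM in WT (SD, n = 5), and Cat, catalase of the peroxisome, rose by 0.37 ± 0.10. Members that fell included Gpx8 and Prdx4, peroxidases of the endoplasmic reticulum, at -0.79 ± 0.11 and -0.63 ± 0.10, and the mitochondrial Prdx3 at -0.43 ± 0.12, which did not pass under scaling to total counts or with the level of Y-linked genes as a covariate.

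In the thioredoxin list, 1 of 11 tested genes rose, 5 fell and 5 did not pass. Txnip, an inhibitor of thioredoxin, rose by 0.79 ± 0.23 (SE). Its groups overlapped, with SMA 3 at 703 CPM below WT 2 at 816 CPM, and WT 5 was the lowest library at 308 CPM. Txnrd2, the mitochondrial relative of Txnrd1, was at 6.07, 6.76, 10.6 and 5.87 CPM in the SMA libraries, against 18.7, 13.9, 15.9, 16.8 and 18.4 CPM in the WT libraries, with SMA 3 the highest of its group. It changed by -1.19 ± 0.17 with an adjusted p of 0.000108 by edgeR. Msra, a methionine sulfoxide reductase, changed by -1.56 ± 0.10.

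Among 16 tested glutathione transferases 5 rose, 6 fell and 5 did not pass. Mgst3 rose by 0.89 ± 0.12 (SE), Gstt2 by 0.81 ± 0.12, Gstm1 by 0.67 ± 0.10 and Gstm7 by 1.34 ± 0.21, while Gstp1 changed by -0.67 ± 0.11. The Gstm genes were divided, since Gstm4 and Gstm5 fell, at -0.53 ± 0.10 and -0.305 ± 0.095. The others that fell were Gstp2 at -0.61 ± 0.14, Gstk1 at -0.72 ± 0.22 and Gstz1 at -0.39 ± 0.08. Members of the Gstm and Gstp clusters have similar sequences, and how the counting treated reads that match several of them was not stated.

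The list of haem, iron, quinone and related genes was mixed: of 13 tested, 6 rose, 4 fell and 3 did not pass. It held known NRF2 targets but also the constitutive Hmox2, which is among those that fell. Aox1, an aldehyde oxidase, rose by 2.18 ± 0.15 (SE), at 87.4, 71.1, 51.2 and 56.5 CPM in the SMA libraries against 13.4, 16.6, 12.6, 14.4 and 16.2 CPM in the WT libraries. Ephx1, an epoxide hydrolase, rose by 1.83 ± 0.17 and the carbonyl reductase gene Cbr1 by 0.44 ± 0.07. Nqo2, the relative of Nqo1 that uses another cofactor, changed by -0.50 ± 0.10, and Abcc4, an exporter of organic anions, by -0.95 ± 0.14.

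Beyond the cell, Sod3, the extracellular superoxide dismutase, rose by 0.95 ± 0.11 (SE), with 27.8 ± 2.13 CPM in SMA (SD, n = 4) and 14.4 ± 2.03 CPM in WT (SD, n = 5). The copper carriers went lower: Atox1 fell by 0.46 ± 0.09, a call lost under scaling to total counts, and Ccs, which loads copper into Sod1, fell by 0.18 ± 0.07 with an adjusted p of 0.0498 by edgeR, a call that was lost in 12 of 18 alternatives and whose sign turned in 1. Among 9 tested oxidant-producing genes 1 rose, 3 fell and 5 did not pass. Xdh, xanthine dehydrogenase, rose by 1.75 ± 0.10, and Ncf4, a subunit of the phagocyte NADPH oxidase, changed by -1.83 ± 0.22, with 0.61 ± 0.15 CPM in SMA (SD, n = 4) and 2.18 ± 0.37 CPM in WT (SD, n = 5).

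Markers of other cell types also differed between the groups. Mbp, a myelin gene, and Sox10, a transcription factor gene of Schwann cells, rose by 1.66 ± 0.30 (SE) and 1.32 ± 0.18 on the log2 scale, in the same direction as Nqo1, Hmox1, Gclm and Sod1, and for both genes every SMA library lay above every WT library. Of 4 fibroblast markers 1 rose and 3 fell (629 to 914 CPM in SMA, 1180 to 2630 CPM in WT), of 4 endothelial markers 0 rose and 2 fell (448 to 521 CPM in SMA, 460 to 589 CPM in WT), and of 4 fat cell markers 0 rose and 2 fell (4.92 to 14.7 CPM in SMA, 18.3 to 162 CPM in WT). Most of the fat cell sum in WT was the brown fat gene Ucp1, at 11.3 to 119 CPM in WT and 0.31 to 1.93 CPM in SMA. The fat cell markers Adipoq and Cidec did not pass, and their groups overlapped. Among neutrophil markers 2 of 4 passed the low-count filter and neither passed the test, with summed levels of 1.23 to 1.44 CPM in SMA and 0.613 to 2.51 CPM in WT. The part of these cell types in the changes of Nqo1, Hmox1, Gclm and Sod1 was not tested.

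**Figure D4:**
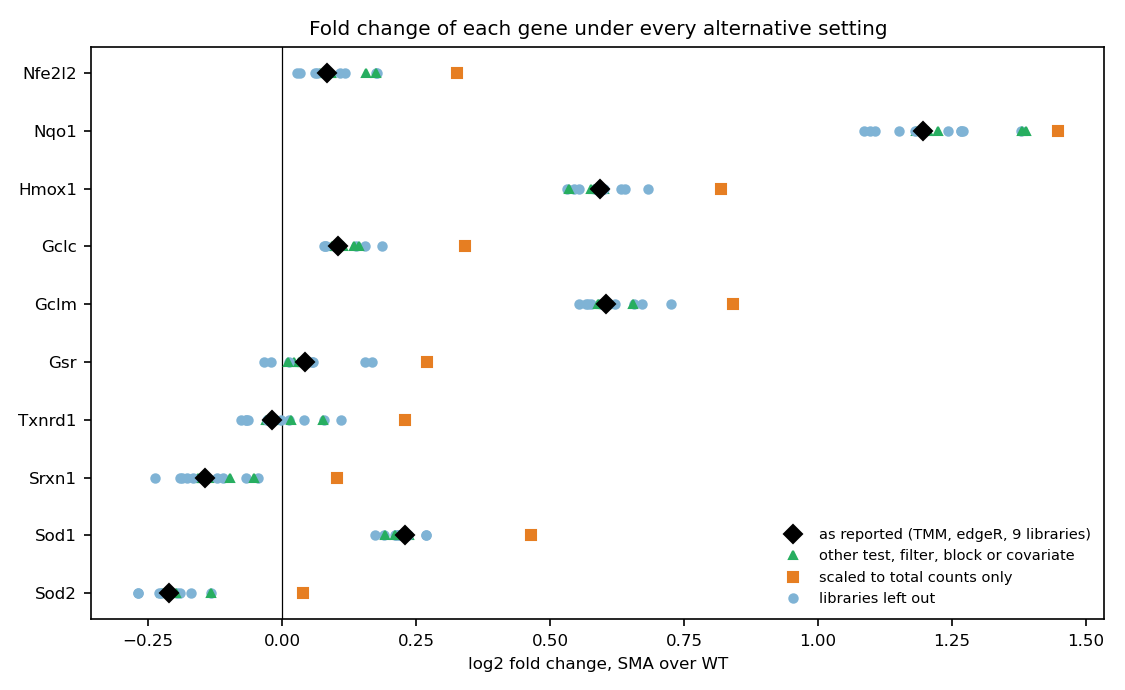
Log2 fold change, SMA over WT, of each of the 10 genes as reported and under 18 other settings. Nqo1, Hmox1 and Gclm stay above 0.5 in every setting shown, and scaling to total counts moves every gene to the right.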

How the data were processed

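RNA of hindlimb muscle was sequenced from 4 SMA and 5 WT samples, with 24917665 to 35087722 counts each. Per the labels' protocols, 200 ng of total RNA entered a stranded mRNA kit and was read as 75-base pairs. Per the submitters' processing notes the tools were HTSeq 0.9.1 and DESeq2 1.16.1 and the build mm10. Their roles, and the aligner and annotation, were not stated. The authors deposited whole-number counts per gene, not normalized, and a second table whose signal is the count over a size factor (0.734 to 1.23), used here only as a check.

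The members and lists were chosen with earlier results of these data known. Counts were fitted with edgeR 4.0.16 in R 4.3.3, with filterByExpr, TMM scaling (trimmed means) and a quasi-likelihood model of group; standard errors are the fold change over the square root of F. Ratios within libraries had exact permutation tests. Alternatives were other scalings and filters, DESeq2 1.42.0, limma-voom (limma 3.58.1), libraries left out, a replicate block and a covariate of Y-linked genes. The fit was tested on simulated data. No replicate pair agreed within sampling noise. Named were the 10 members, the 2 genes of lowest adjusted p in each wider list, the 3 nearest to Gclm, and Smn1; other genes of the lists, such as Keap1, Cth, Slc7a11, Mbp and Sox10, were chosen after their values were seen. Positions and lengths are from GENCODE M21; Selenow was matched by its older symbol. One marker list is not reported here in full.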

Additional observations from a re-analysis of the deposited data

How the results depend on the processing

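Nqo1, Hmox1 and Gclm kept their direction and their call under all 18 alternatives, with log2 fold changes of 1.09 to 1.45, 0.53 to 0.82 and 0.55 to 0.84. Sod1 kept its direction but not its call at 0.22 without WT 3, 0.22 without SMA 1, 0.17 without WT 5 and SMA 3 together, 0.21 with the replicate block and 0.19 with the Y-linked covariate; over libraries left out 1 at a time it ranged from 0.19 to 0.27. Scaling to total counts called Nfe2l2 at 0.33 and Gclc at 0.34, turned Txnrd1 to 0.23, Srxn1 to 0.10, Sod2 to 0.038, Keap1 to 0.17 and Ccs to 0.057, and counted 2164 genes lower in SMA in place of 4319; the split of calls became 74.7% higher against 50.4%. The same scaling gave 40 genes of the wider lists that rose and 16 that fell. Txnrd1 also turned to 0.11 without WT 5 and SMA 3 together, when Keap1 turned to 0.007, to 0.076 with the replicate block and to 0.017 with the Y-linked covariate. Leaving out 1 library gave ranges of -0.077 to 0.078 for Txnrd1 and -0.033 to 0.155 for Gsr. The Txnrd1/Gsr difference ranged from -0.132 to 0.091 with 1 library left out. The cause of these changes was not tested.

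The Gclc/Gclm difference ranged from -0.525 to -0.451 and the Sod2/Sod1 difference from -0.486 to -0.345 with 1 library left out. With 5 against 3 libraries the exact p was 0.0179 for the first in each case, the smallest that design allows. No pairing of the samples by replicate number was seen. Correlations of same-numbered deviations were 0.118, -0.006, -0.048 and 0.097, and 1 of 8 libraries correlated best with its own number. With so few libraries this cannot exclude shared litters or days. The replicate block over libraries 1 to 4 called 3973 genes higher and 3899 lower. In it the ratio differences were -0.52 for Gclc/Gclm, 0.038 for Txnrd1/Gsr and -0.345 for Sod2/Sod1, where 4 pairs cannot give an exact p below 0.125. Depth limits Nqo1 most.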
